A study of Mus musculus with 120 samples.

Results

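The genes described here are 36 genes of glycolysis and gluconeogenesis: glucose transporters, the enzymes between glucose and lactate, the regulators of the entry of pyruvate into mitochondria, lactate transporters, the gluconeogenic enzymes and the phosphoglucomutases that lead towards glycogen. They were chosen by symbol, and for each gene all its probesets on the array were taken and the probeset with the highest mean level was kept. On the Mouse430_2 array 33 of the 36 genes were measured, among 18194 genes in all, and on the smaller Mouse430A_2 array 32 of the 36, among 12394. Gpi1, the glucose phosphate isomerase, Eno1, the main enolase of dividing cells, and Pfkfb1 had no probeset assigned to their symbol alone and were not analysed here, and Pfkfb4 was measured only on the larger array.

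Glycolysis turns glucose into pyruvate and yields ATP without oxygen. Its flux is set mainly at glucose uptake, at hexokinase and at phosphofructokinase, and the last of these is activated by a sugar bisphosphate that the PFKFB enzymes make and break down. Pyruvate is either reduced to lactate and exported or oxidised in mitochondria, a choice on which the pyruvate dehydrogenase kinases (Pdk genes) act by switching off the oxidising complex. Undifferentiated mouse embryonic stem (mES) cells take up much glucose and release much of it as lactate, and many glycolytic genes are known targets of the hypoxia-inducible factors and of Myc.

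The cells were clones of EB3, a mES cell line with a tetracycline (Tc) controlled cassette in the ROSA26 locus, in which Tc represses the inserted gene. Each clone carried a FLAG-tagged coding sequence of 1 of 20 genes that lie on human chromosome 21, mostly the mouse sequence and for Zfp295, Dyrk1a and Snf1lk the human one. For each gene 3 clones were profiled after withdrawal of Tc (induced) and with Tc (uninduced, 0 hours), so 120 arrays came from 60 clones grown with LIF, the cytokine that holds mES cells undifferentiated. By the labels the induced clones of Hunk, Ripk4 and Sim2 were without Tc for 39 hours, those of Aire and Pdxk for 48 hours, and those of Bach1, Dscr1, Dyrk1a, Erg, Ets2, Gabpa, Nrip1, Olig1, Olig2, Pfkl, Pknox1, RIKEN-1810007M14, Runx1, Snf1lk and Zfp295 for 24 hours. Withdrawal of Tc involved a medium change and passage to fresh dishes, and every uninduced array is a 0 hour array, so the effects of the inserted gene, of the loss of Tc and of that handling and time in culture cannot be told apart within an experiment. In bulk RNA, moreover, fewer cells of a type and less RNA per cell cannot be told apart. The clone list of the study gives 39 hours for Pfkl, and 2 of the clone names on the Olig2 arrays stand under Olig1 there.

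Values are log2 intensities, and a difference is induced minus uninduced within a replicate number, averaged over 3 numbers, so that 1 unit is a doubling. A gene was called changed where limma, with the replicate number as a block, gave a Benjamini-Hochberg adjusted p under 0.05 over all probesets of the array. The 33 or 32 genes in 20 experiments made 659 differences, of which 36 were called higher and 10 lower after induction. These calls came from 6 of the 20 experiments. Over all experiments 16 genes were called higher at least once and 8 lower at least once, 2 of them in both directions, and 11 were never called. The lactate exporter gene Slc16a3 and the phosphoglucomutase gene Pgm1 were called higher in 5 experiments each, Aldoc in 4 and Pfkm in 3. In 4 of the 46 called differences the values of the induced and uninduced clones overlapped, which is possible because the comparison is made within clones.

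**Figure D1:**
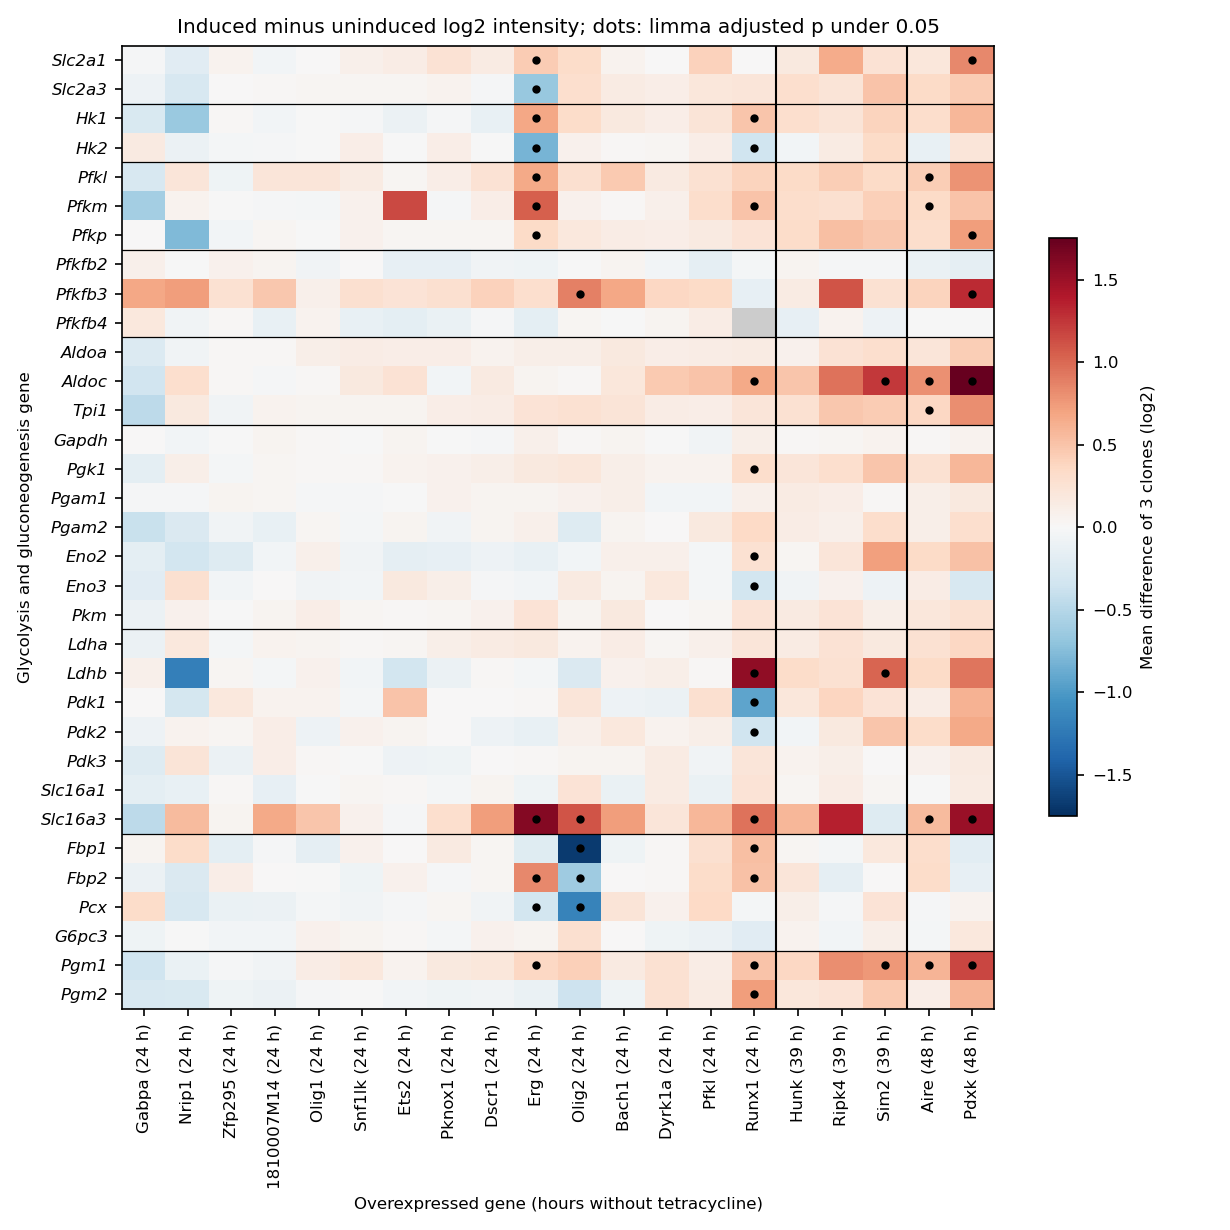
Heat map of the mean induced minus uninduced log2 difference of 3 clones for 33 glycolysis and gluconeogenesis genes (rows, by step of the pathway) in the 20 experiments (columns, 24 hours to 48 hours without Tc). Red is higher and blue lower after induction, grey is not on the array, and the dots, which mark a limma adjusted p under 0.05, stand in 6 experiments, 36 of them on higher and 10 on lower values.

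The share of these genes called in an experiment has to be read against the share of all genes. In Pdxk 6 of 33 were called higher and 0 lower, against 0.324% and 0.0385% of all genes. In Aire 6 were called higher and 0 lower, against 3.4% and 1.63%. In Sim2 3 were called higher and 0 lower, against 0.912% and 0.275%. Thus in all the experiments of 39 or 48 hours with calls, the calls were higher. The 24 hour experiments with calls had both directions. In Runx1 11 of 32 were called higher and 4 lower, against 9.99% and 8.5% of all genes. In Erg 8 of 33 were called higher and 3 lower, against 6.69% and 9.33%, so that the share called lower was near that of all genes. In Olig2 2 were called higher and 3 lower, against 1.19% and 1.31%. The other 14 experiments had 0 calls, and there an unadjusted p under 0.05 was reached by 12 of 33 genes in Hunk, 11 in Ripk4 and 6 in Pfkl, each time with a higher level after induction, against 9.61%, 8.59% and 5.13% of all genes. It was reached by 4 genes higher and 8 lower in Nrip1, against 12.1% of all genes, and by 5 in Dyrk1a, against 16.2%. In Ets2 4 genes higher and 1 lower reached it, against 5.18%. At most 2 did so in each of the others, against 1.83% to 10.5% of all genes.

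Several of these counts rest on single clones or on the pairing of clones. Without the replicate block the calls numbered 14 in Runx1, 7 in Erg, 2 in Olig2 and 0 in each of Aire, Pdxk and Sim2. Without replicate 3 they numbered 0 in Aire, 0 in Pdxk and 6 in Erg, without replicate 2 they numbered 0 in Sim2 and 20 in Pdxk, and without replicate 1 they numbered 2 in Pdxk and 1 in Olig2. The study's list gives the Sim2 clones in a different order in each state, and with that crossed pairing Sim2 had 0 calls. Over all probesets the deviations of Sim2 replicates 1 and 2 correlated between states at 0.40 and 0.37 when paired by number. When crossed they correlated at 0.10 and −0.52.

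The label of mES cells was checked with 10 markers of the undifferentiated state. They were called lower in Erg for 6 of 10 (median −0.41) and in Runx1 for 7 of 10 (median −0.52), 1 was called higher in Aire, and 0 were called in the other experiments. Of all genes 6.69% were called higher and 9.33% lower in Erg, 9.99% and 8.5% in Runx1, and 3.4% and 1.63% in Aire. In Nrip1 0 of the 10 differences were positive (median −0.30), and the summed unlogged intensity was 41437 to 50963 on induced and 52063 to 55889 on uninduced arrays, without overlap. The sum was 47834 to 50662 on induced and 58038 to 61656 on uninduced Erg arrays, and 65198 to 68117 on induced and 78260 to 80613 on uninduced Runx1 arrays. Of 8 fibroblast markers 1 rose in Erg, the surface glycoprotein gene Thy1 (2.11), and their summed intensity was 728 to 1075 on induced and 251 to 404 on uninduced arrays. In Runx1 S100a4 rose and Lum fell among them, and the sum was 329 to 370 on induced and 337 to 397 on uninduced arrays. Among 3 mesoderm and 4 neural markers Kdr (1.48) and Nes (0.35) rose in Erg, Eomes (1.74) and Nes (0.47) rose and Kdr (−0.41) and Pax6 (−0.71) fell in Runx1, and Eomes (−0.37) and Pax6 (−0.81) fell in Aire. The summed mesoderm intensity was 393 to 495 on induced and 213 to 239 on uninduced Runx1 arrays, 158 to 251 on induced and 131 to 136 on uninduced Erg arrays, and 221 to 236 on induced and 151 to 183 on uninduced Nrip1 arrays. The summed neural intensity was 326 to 525 on induced and 219 to 247 on uninduced Nrip1 arrays. Of 5 endoderm markers none was called in any experiment, but in some experiments their sum varied widely between clones in both states. It was 178 to 2348 on induced and 197 to 2030 on uninduced Ets2 arrays, 204 to 1499 and 209 to 1931 in Pknox1, and 126 to 1157 and 123 to 904 in Olig1. In Pdxk the mesoderm sum was 208 to 217 on induced and 130 to 174 on uninduced arrays. In Olig2 1 fibroblast marker was called higher, against 1.19% of all genes, and the neural sum was 358 to 396 and 291 to 353. The Hunk neural sum was 285 to 309 and 331 to 358. Some other sums were apart too, such as the undifferentiated marker sums of Pdxk (63916 to 66225 and 61116 to 62721) and Gabpa (54111 to 55724 and 56558 to 56857). The part of these shifts in the glycolysis results of any experiment was not tested. The 3′ and 5′ control probesets of Gapdh shifted against each other by −0.02 to 0.07 between induced and uninduced arrays over all experiments. Those of Actb shifted more, from −0.14 in RIKEN-1810007M14 and −0.09 in Erg to 0.11 in Ripk4 and 0.40 in Pfkl. In Erg the Actb values were 0.13 to 0.20 on induced and 0.22 to 0.31 on uninduced arrays, and the part of this in the results was not tested. Array medians lay between 4.89 and 5.68 on the Mouse430_2 array, so levels were compared within an experiment.

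The median difference over the measured genes was positive in 17 of 20 experiments. It was largest in Pdxk (0.45), followed by Sim2 and Aire (0.27 each), Ripk4 and Runx1 (0.23 each), Hunk (0.15) and Pfkl (0.13), and it was lowest in Gabpa (−0.10) and Nrip1 (−0.05). The median over all genes stayed between −0.03 and 0.02 in every experiment. In the 5 experiments of 39 or 48 hours the median of the glycolysis genes lay between 0.15 and 0.45 and was above 0 in each of the 3 clones. In the 15 experiments labelled 24 hours it lay between −0.10 and 0.23 and was above 0 in each clone in 7. The ranges of the late and the 24 hour experiments overlap through Runx1.

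**Figure D2:**
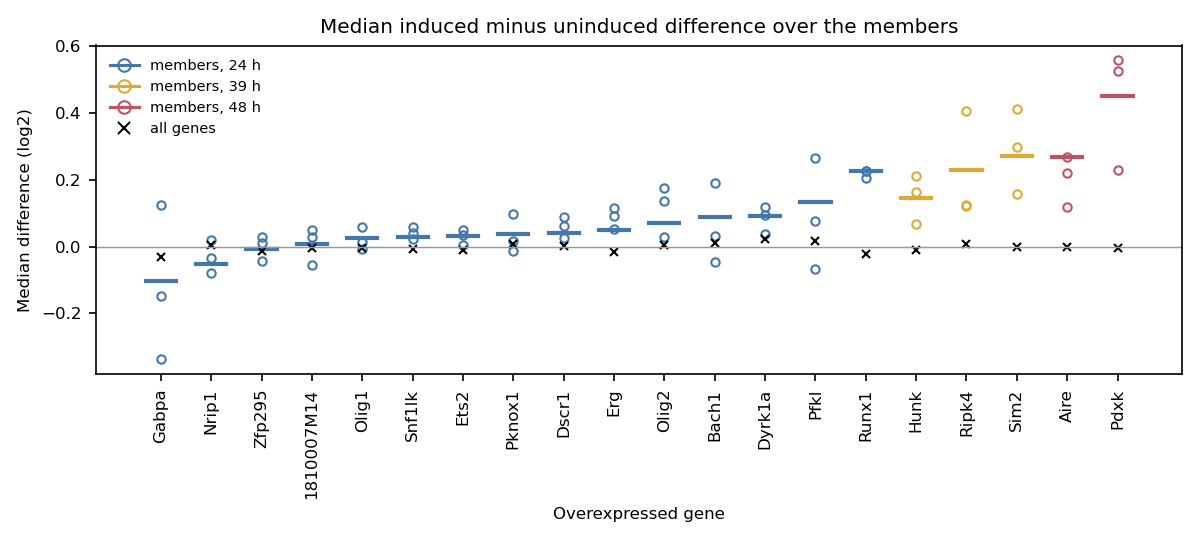
Median induced minus uninduced log2 difference over the glycolysis and gluconeogenesis genes (members) of each clone pair (circles) and of the mean differences (bars) in each experiment, coloured by hours without Tc, with the median over all genes as crosses. The bars of the 39 and 48 hour experiments lie between 0.15 and 0.45, those of the 24 hour experiments between −0.10 and 0.23.

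Promoters were looked at because the genes moved together in several experiments and because hypoxia-inducible factors bind a short core that can be searched. The core was searched as ACGTG or GCGTG on both strands of the 300 bases around 1 start of each gene (250 before and 50 after), the outermost in a RefSeq promoter table (GRCm38.p6) that for some genes lies within the annotated gene span, and ACGTG is also part of CACGTG, the E-box that Myc and other factors bind. A promoter was found for 32 of the 33 genes, not for Slc2a3. The core was present in 25 of the 32 (78.1%), against 43.8% of all 27025 promoters, ACGTG in 18 (56.2%), against 19.6%, and CACGTG in 7 (21.9%), against 7.24%. Of the 10 promoters of genes whose change was called larger at 39 or 48 hours than at 24 hours, 8 held the core (80%), and of the 22 others 17 did (77.3%). A match describes the letters and is no evidence of a bound site. Each form of the core contains CG, and the promoters compared were not matched for base composition. The promoters of 4 genes called higher in several experiments or over all of them are shown with that of Fbp1, which was called lower in Olig2 and higher in Runx1, capitals marking the core on either strand (CACGT and CACGC are its reverse complements).
Pfkfb3, chr2:11553880-11554179, minus strand: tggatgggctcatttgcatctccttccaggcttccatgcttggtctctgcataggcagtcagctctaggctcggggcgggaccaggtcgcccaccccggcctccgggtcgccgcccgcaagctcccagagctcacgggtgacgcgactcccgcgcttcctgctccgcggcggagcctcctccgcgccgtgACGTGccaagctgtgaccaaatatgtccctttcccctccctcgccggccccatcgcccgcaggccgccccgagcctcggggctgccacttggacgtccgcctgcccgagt
Slc16a3, chr11:120948817-120949116, plus strand: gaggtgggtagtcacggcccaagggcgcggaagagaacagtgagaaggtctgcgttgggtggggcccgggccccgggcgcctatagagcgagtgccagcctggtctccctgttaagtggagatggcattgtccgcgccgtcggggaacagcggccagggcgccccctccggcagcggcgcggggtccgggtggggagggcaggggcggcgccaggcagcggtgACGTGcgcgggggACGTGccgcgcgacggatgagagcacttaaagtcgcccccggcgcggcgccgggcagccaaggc
Aldoc, chr11:78322823-78323122, plus strand: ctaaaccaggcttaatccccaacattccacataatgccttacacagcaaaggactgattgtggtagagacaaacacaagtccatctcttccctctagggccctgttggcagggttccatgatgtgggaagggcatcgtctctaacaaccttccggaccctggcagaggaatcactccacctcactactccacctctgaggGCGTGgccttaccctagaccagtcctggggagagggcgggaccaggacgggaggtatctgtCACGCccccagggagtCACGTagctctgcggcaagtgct
Pgm1, chr4:99929201-99929500, plus strand: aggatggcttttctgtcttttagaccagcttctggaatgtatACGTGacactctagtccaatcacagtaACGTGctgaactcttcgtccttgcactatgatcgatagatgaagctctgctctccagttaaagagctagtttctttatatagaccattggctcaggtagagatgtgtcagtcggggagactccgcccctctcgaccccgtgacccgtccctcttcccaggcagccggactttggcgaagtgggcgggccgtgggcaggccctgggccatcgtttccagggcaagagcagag
Fbp1, chr13:62888233-62888532, minus strand: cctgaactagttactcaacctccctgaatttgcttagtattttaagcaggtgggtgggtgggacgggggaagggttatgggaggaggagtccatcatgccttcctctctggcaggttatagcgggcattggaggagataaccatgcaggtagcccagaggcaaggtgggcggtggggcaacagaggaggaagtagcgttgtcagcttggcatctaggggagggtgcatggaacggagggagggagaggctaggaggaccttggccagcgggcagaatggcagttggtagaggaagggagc
In these windows Aldoc held 3 matches, Slc16a3 and Pgm1 2 each, Pfkfb3 1 and Fbp1 0. Genes called higher in some experiment also had windows with 0 matches, among them Hk1, Eno2 and Tpi1, and the 5 shown were chosen with these values known.

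Genes of glucose uptake and of the hexokinase step were called in both directions. Slc2a1, the basal glucose transporter, was at 12.50, 12.93 and 12.74 in induced clones, against 11.41, 12.25 and 11.98 in uninduced clones of Pdxk. All 3 induced Pdxk values were above all uninduced ones, and the difference was 0.84 ± 0.104 (SE, n = 3 pairs, limma adjusted p = 0.0276). Slc2a1 also rose in Erg, by 0.44 (limma adjusted p = 0.0117), and over the 20 experiments its differences ran from −0.20 in Nrip1 to the value in Pdxk. Slc2a3, the high-affinity transporter, fell in Erg, with 12.13, 12.35 and 11.96 in induced clones, against 12.87, 13.000 and 12.57 in uninduced clones. The Erg groups did not overlap for it, the other 3 Slc2a3 probesets were called lower there as well, and the difference was −0.67 ± 0.0791 (SE, n = 3 pairs, limma adjusted p = 0.00172). Hk2, the hexokinase that binds mitochondria in growing cells, was the larger decrease in Erg, with 9.51, 9.67 and 9.49 in induced clones, against 10.26, 10.48 and 10.40 in uninduced clones. The induced values all lay below the uninduced ones, with a difference of −0.82 ± 0.0808 (SE, n = 3 pairs, limma adjusted p = 0.00077), and Hk2 fell in Runx1 as well, by 0.36 (limma adjusted p = 0.0154). Hk1, the widely expressed hexokinase, went the other way in both experiments. It was at 9.69, 9.55 and 9.69 in induced clones, against 8.98, 9.10 and 8.82 in uninduced clones of Erg, a difference of 0.68 ± 0.1 (SE, n = 3 pairs, limma adjusted p = 0.00467) with no overlap, and it differed by 0.49 in Runx1 (limma adjusted p = 0.0234). In Nrip1 the Hk1 difference was −0.65 and was not called (limma adjusted p = 0.16).

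The 3 phosphofructokinase genes encode the liver (Pfkl), muscle (Pfkm) and platelet (Pfkp) subunits of the committing enzyme of glycolysis. Pfkm was at 9.57, 9.40 and 9.59 in induced clones, against 8.58, 8.36 and 8.48 in uninduced clones of Erg. The induced values exceeded every uninduced one, with a difference of 1.04 ± 0.0789 (SE, n = 3 pairs, limma adjusted p = 0.000261). Pfkm was also called higher in Runx1 (0.50, limma adjusted p = 0.00567) and in Aire (0.34, limma adjusted p = 0.0442). The largest Pfkm difference of all was not called. In Ets2 the gene was at 9.62, 10.14 and 9.99 in induced clones, against 8.93, 8.72 and 8.64 in uninduced clones, again without overlap, and the difference of 1.15 had a limma adjusted p of 0.933 in an experiment where 0 of all genes were called. In Gabpa the Pfkm difference was −0.60 (limma adjusted p = 0.213). Pfkp rose in Pdxk by 0.73 (limma adjusted p = 0.0285) and in Erg by 0.34 (limma adjusted p = 0.0368), where its groups overlapped, and its difference in Nrip1 was −0.77 (limma adjusted p = 0.212).

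Pfkl is both one of these genes and one of the 20 genes overexpressed. In its own clones the probeset with the highest level was at 10.62, 11.32 and 11.51 in induced clones, against 10.96, 11.25 and 10.45 in uninduced clones. Replicate 1 was lower after induction and replicate 3 higher, the groups overlapped, and the difference was 0.27 (limma adjusted p = 0.987). A second Pfkl probeset was at 9.98, 11.20 and 11.03 in induced clones, against 10.14, 10.42 and 9.79 in uninduced clones, with a difference of 0.62 (unadjusted p = 0.0605, limma adjusted p = 0.933), and the last one differed by −0.02 (limma adjusted p = 0.999). The inserted sequence has no untranslated regions, and whether each probeset lies in the coding sequence was not tested. In other clones Pfkl rose in Erg by 0.67 (limma adjusted p = 0.0106), with overlapping groups, and in Aire by 0.43 (limma adjusted p = 0.0186). In the Pfkl experiment 0 of the glycolysis genes were called. The median over all 33, Pfkl among them, was 0.13, and 6 genes had an unadjusted p under 0.05, all higher. The difference between the 3′ and 5′ control probesets of Actb, a measure of RNA length, was 0.44 to 1.28 on induced and 0.23 to 0.49 on uninduced Pfkl arrays, and its part in these values was not tested.

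Pfkfb3, which encodes the PFKFB enzyme with the highest kinase activity and so raises the activator of phosphofructokinase, was called higher in 2 experiments and, as given below, over the experiments together. In Pdxk it was at 6.18, 6.77 and 6.27 in induced clones, against 4.84, 5.46 and 5.01 in uninduced clones. The clones moved by much the same amount, the groups did not overlap, and the difference was 1.30 ± 0.0836 (SE, n = 3 pairs, limma adjusted p = 0.00452), a 2.47-fold higher level. In Olig2 it was at 6.47, 6.82 and 6.58 in induced clones, against 5.84, 5.51 and 5.88 in uninduced clones, with all induced values above the uninduced ones and a difference of 0.88 ± 0.131 (SE, n = 3 pairs, limma adjusted p = 0.0248). In Ripk4 it was at 6.48, 5.64 and 6.95 in induced clones, against 5.13, 4.73 and 5.91 in uninduced clones. There replicate 2 after induction lay below replicate 3 before it, all 3 clones were higher after induction, and the difference of 1.10 was not called (limma adjusted p = 0.0701). The other Pfkfb3 probeset differed by 0.48 in Pdxk (limma adjusted p = 0.078) and 0.40 in Olig2 (limma adjusted p = 0.132). The Nrip1 difference of 0.73 likewise missed the threshold (limma adjusted p = 0.0537).

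With 1 mean difference per experiment, Pfkfb3 was higher after induction in 19 of the 19 experiments on the Mouse430_2 array, from 0.09 in Olig1 to 1.30 in Pdxk, and in 51 of the 57 clone pairs. The mean was 0.48 ± 0.0688 (SE, n = 19 experiments, limma adjusted p = 0.019), or 1.4-fold. It was the 1 glycolysis gene called over these experiments, with 0 called lower, while 0.066% of all genes were called higher and 0.0055% lower. In the 14 experiments of 24 hours alone its mean was 0.43 (limma adjusted p = 0.0109). The next genes were Pfkl (0.26, limma adjusted p = 0.0573), Slc16a3 (0.55, limma adjusted p = 0.0694) and Ldha (0.11, limma adjusted p = 0.0749), and 29 of the 33 means were positive, with a median of 0.09, against −0.0025 over all genes. The Pfkfb3 call is close to its limit: the limma adjusted p was 0.0634 without replicate 3 and 0.0539 without the Bach1 experiment. In Runx1, on the other array, Pfkfb3 was at 5.48, 5.58 and 5.40 in induced clones, against 5.48, 5.58 and 5.83 in uninduced clones, with overlapping groups and a difference of −0.14 (95% interval −0.40 to 0.11, limma adjusted p = 0.392). A second Pfkfb3 probeset had a mean of 0.11 over the 19 experiments and was positive in 14 (limma adjusted p = 0.139). Pfkfb2 and Pfkfb4, the related enzymes of heart and testis, stayed between −0.18 and 0.18 in every experiment and were never called.

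**Figure D3:**
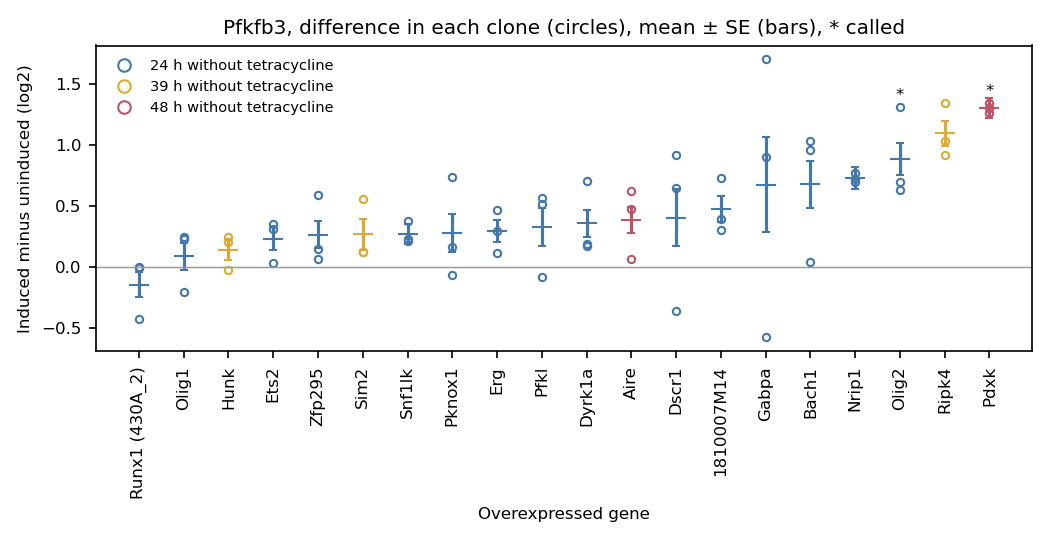
Pfkfb3 induced minus uninduced log2 difference of each clone pair (circles) with the mean and its SE (bars), experiments ordered by the mean and coloured by hours without Tc, an asterisk marking a limma adjusted p under 0.05. The mean lies above 0 in the 19 Mouse430_2 experiments, 51 of whose 57 clone pairs lie above 0, and at −0.14 in Runx1.

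Aldoc, the brain-type aldolase, gave the largest single difference of all these genes. In Pdxk it was at 9.53, 10.30 and 10.04 in induced clones, against 7.17, 9.49 and 7.96 in uninduced clones. The clones differed in size, replicate 2 by 0.81 and replicates 1 and 3 by over 2 units, all induced values were above the uninduced ones, and the mean was 1.75 ± 0.254 (SE, n = 3 pairs, limma adjusted p = 0.0498), 3.36-fold. In Sim2 Aldoc was at 9.58, 9.996 and 10.09 in induced clones, against 8.80, 8.38 and 8.79 in uninduced clones, with a difference of 1.23 ± 0.164 (SE, n = 3 pairs, limma adjusted p = 0.0421). In Aire it was at 9.01, 9.05 and 9.58 in induced clones, against 8.004, 8.56 and 8.67 in uninduced clones, with a difference of 0.80 ± 0.104 (SE, n = 3 pairs, limma adjusted p = 0.00878). In Runx1 it was at 8.65, 8.94 and 8.39 in induced clones, against 7.91, 8.21 and 7.86 in uninduced clones, with a difference of 0.66 ± 0.0707 (SE, n = 3 pairs, limma adjusted p = 0.00342). None of these 4 comparisons had overlapping groups. The other Aldoc probeset, dim at a mean level near 3, differed by 0.04 in Pdxk, 0.05 in Sim2, 0.13 in Aire and −0.09 in Runx1 and was not called. Aldoa, the aldolase of muscle and most growing tissues, was never called and ran from −0.24 in Gabpa to 0.43 in Pdxk. Tpi1, the triose phosphate isomerase, rose in Aire by 0.36 (limma adjusted p = 0.0313), and its Pdxk difference of 0.81 was not called (limma adjusted p = 0.0666).

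The enzymes below the triose step held few calls. Gapdh, which forms the first NADH of the pathway and is often used as a control, stayed between −0.07 and 0.10 in all 20 experiments, Pgam1, the phosphoglycerate mutase of most tissues, between −0.04 and 0.17, and Pkm, the pyruvate kinase, between −0.10 and 0.27, with no call among them. Pgk1, the phosphoglycerate kinase, rose in Runx1 by 0.31 (limma adjusted p = 0.0231) and had its highest difference in Pdxk (0.58, limma adjusted p = 0.0987). Of the muscle isoforms, Pgam2 ran from −0.39 to 0.35 with no call, and Eno3 fell in Runx1 by 0.33 (limma adjusted p = 0.0272). Eno2, the neuronal enolase, was called higher in Runx1 (0.27, limma adjusted p = 0.0499), where its uninduced level was below the lower quartile of all probesets, and its highest difference was 0.71 in Sim2 (limma adjusted p = 0.0616).

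Of the genes that act on pyruvate and lactate, Slc16a3 was called in 5 experiments, Ldhb in 2, and Pdk1 and Pdk2 in 1 each. Slc16a3, the exporter of lactate in glycolytic cells, was at 8.97, 8.42 and 7.16 in induced clones, against 6.98, 7.40 and 5.36 in uninduced clones of Erg. Replicate 3 was low in both states, so the groups overlapped, while each clone rose, with a difference of 1.61 ± 0.169 (SE, n = 3 pairs, limma adjusted p = 0.00104), 3.04-fold. In Pdxk it was at 8.76, 9.31 and 8.67 in induced clones, against 6.74, 8.03 and 7.41 in uninduced clones, with no overlap and a difference of 1.51 ± 0.15 (SE, n = 3 pairs, limma adjusted p = 0.0131), 2.86-fold. In Olig2 it was at 10.32, 10.73 and 10.24 in induced clones, against 9.15, 9.49 and 9.36 in uninduced clones, again with no overlap and a difference of 1.10 ± 0.088 (SE, n = 3 pairs, limma adjusted p = 0.00386). It was also called higher in Runx1 (0.95, limma adjusted p = 0.0238) and Aire (0.55, limma adjusted p = 0.02). Its Ripk4 difference of 1.36 was not called (limma adjusted p = 0.604), and the lowest was −0.46 in Gabpa (limma adjusted p = 0.536). Slc16a1, a related and widely expressed lactate transporter, stayed between −0.18 and 0.24 with no call.

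Ldhb, the lactate dehydrogenase subunit that favours lactate oxidation, was at 12.38, 12.45 and 12.63 in induced clones, against 10.87, 10.99 and 10.95 in uninduced clones of Runx1. The 3 clones were alike and far apart between states, with a difference of 1.55 ± 0.071 (SE, n = 3 pairs, limma adjusted p = 0.00035), 2.93-fold. In Sim2 it was at 11.13, 11.53 and 12.11 in induced clones, against 10.37, 10.32 and 11.03 in uninduced clones, with all induced values above the uninduced ones and a difference of 1.02 ± 0.122 (SE, n = 3 pairs, limma adjusted p = 0.0336). In Nrip1 it was at 9.59, 8.49 and 9.20 in induced clones, against 10.30, 10.45 and 10.10 in uninduced clones, the opposite order without overlap, and the difference of −1.19 was not called (limma adjusted p = 0.124). All 4 Ldhb probesets were called higher in Runx1, the other 3 by 1.52 to 1.72, and in Sim2, the other 3 by 0.91 to 1.00. The study, in setting Runx1 mRNA against protein, lists a lower mRNA ratio for Ldhb and a higher one for Pkm2 (Pkm here). In the fit used here Ldhb was higher and Pkm was not called in Runx1, and the reason for the discrepancy was not tested. Ldha, the subunit that favours lactate formation, ran from −0.10 in Gabpa to 0.36 in Pdxk and was not called in any experiment. Pdk1, the pyruvate dehydrogenase kinase induced by hypoxia, fell in Runx1, with 9.40, 9.80 and 9.08 in induced clones, against 10.34, 10.46 and 10.26 in uninduced clones. The Runx1 groups did not overlap for it, the difference being −0.93 ± 0.107 (SE, n = 3 pairs, limma adjusted p = 0.00451), and Pdk2 fell there by 0.34 (limma adjusted p = 0.0491). Pdk1 and Pdk2 had their highest differences in Pdxk (0.61 and 0.67, limma adjusted p = 0.0749 and 0.0806), and Pdk3 stayed between −0.23 and 0.22.

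**Figure D4:**
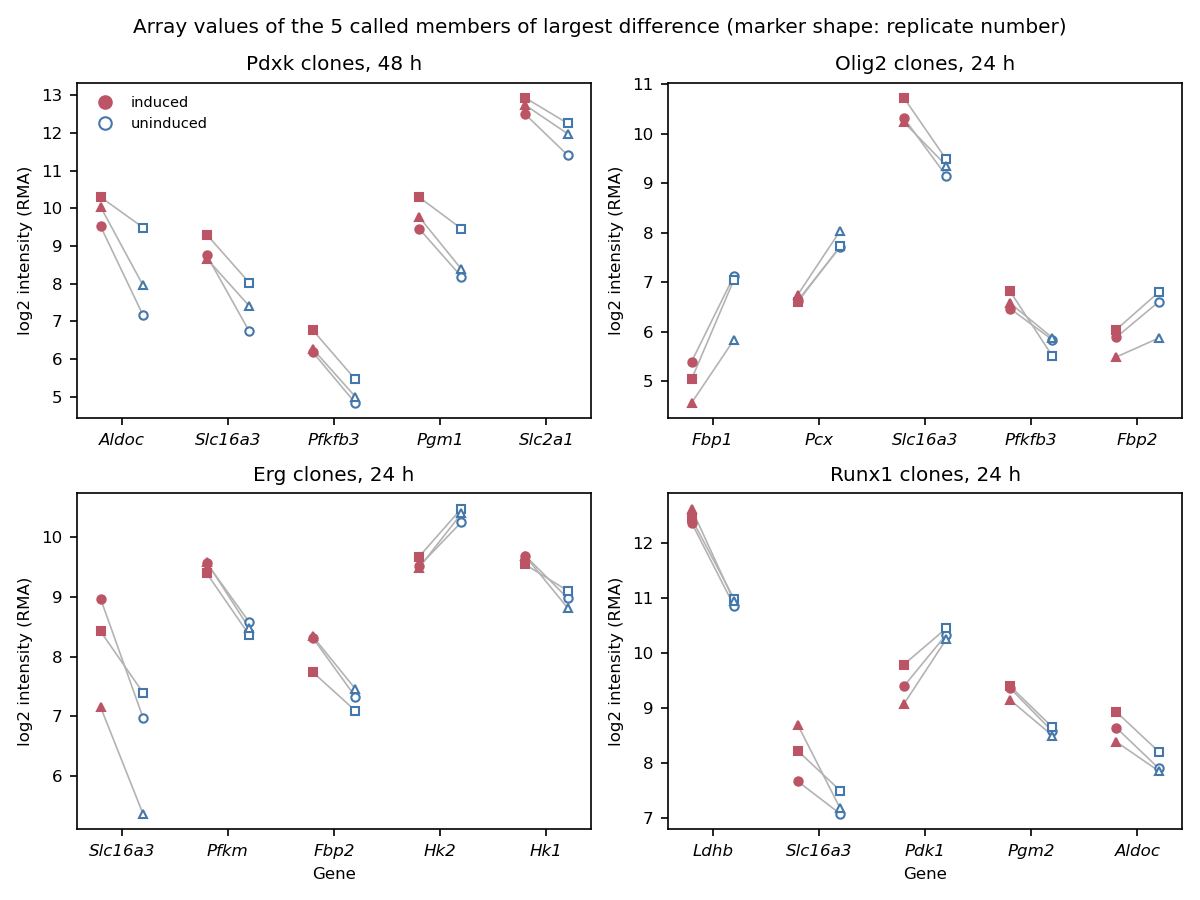
Log2 intensity on each induced (filled, left) and uninduced (open, right) array, lines joining the arrays of a replicate number, for the 5 called genes of largest difference in Pdxk, Olig2, Erg and Runx1. Ldhb in Runx1 lies between 12.38 and 12.63 on induced arrays and between 10.87 and 10.99 on uninduced arrays.

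Among the gluconeogenic genes the widest called decreases of the whole group were found in Olig2. Fbp1, the fructose bisphosphatase of liver, which runs the phosphofructokinase step backwards, was at 5.40, 5.04 and 4.56 in induced clones, against 7.13, 7.06 and 5.84 in uninduced clones. Every induced clone was lower than every uninduced one, with a difference of −1.68 ± 0.13 (SE, n = 3 pairs, limma adjusted p = 0.00365). Pcx, the pyruvate carboxylase that feeds gluconeogenesis and the citrate cycle, was at 6.63, 6.60 and 6.75 in induced clones, against 7.71, 7.73 and 8.04 in uninduced clones of Olig2, with no overlap and a difference of −1.17 ± 0.0739 (SE, n = 3 pairs, limma adjusted p = 0.00198). The Pcx value comes from a control probeset of the array for the 3′ end of this gene, and the other 4 Pcx probesets were called lower in Olig2 too, by 0.44 to 1.43. Fbp2, the muscle isoform, fell in Olig2 by 0.62 (limma adjusted p = 0.0238), where its groups overlapped. Calls in the other direction were found for Fbp2 in Erg and for Fbp1 and Fbp2 in Runx1, while Fbp1 in Erg differed by −0.22 with no call. In Erg Fbp2 was at 8.31, 7.74 and 8.34 in induced clones, against 7.33, 7.09 and 7.46 in uninduced clones, a difference of 0.84 ± 0.0925 (SE, n = 3 pairs, limma adjusted p = 0.00128), while Pcx fell by 0.32 (limma adjusted p = 0.041) and its other 4 probesets ran from −0.27 to 0.24 with no call. In Runx1 Fbp1 and Fbp2 were called higher (0.53 and 0.51, limma adjusted p = 0.00615 and 0.00633). G6pc3, the glucose phosphatase found in most tissues, stayed between −0.20 and 0.28.

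Pgm1 and Pgm2 encode phosphoglucomutases, which move glucose phosphate towards and from glycogen. Pgm1 was at 9.46, 10.30 and 9.78 in induced clones, against 8.19, 9.46 and 8.39 in uninduced clones of Pdxk. Replicate 2 was high in both states, its uninduced value lying just under the lowest induced one, and the difference was 1.17 ± 0.118 (SE, n = 3 pairs, limma adjusted p = 0.0134), 2.25-fold. In Sim2 it was at 9.64, 9.60 and 9.83 in induced clones, against 9.09, 8.62 and 9.07 in uninduced clones, with no overlap and a difference of 0.76 ± 0.119 (SE, n = 3 pairs, limma adjusted p = 0.0485). The other Pgm1 probeset differed by 0.06 in Pdxk and 0.11 in Sim2, with no call. Pgm1 was called higher too in Aire (0.60), Runx1 (0.51) and Erg (0.37), with limma adjusted p of 0.0103, 0.0136 and 0.0249. Pgm2 was called once, in Runx1, with 9.37, 9.41 and 9.15 in induced clones, against 8.58, 8.66 and 8.51 in uninduced clones. Its groups were well apart there, the difference being 0.73 ± 0.0636 (SE, n = 3 pairs, limma adjusted p = 0.00177).

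The 5 late experiments (39 hours for Hunk, Ripk4 and Sim2, 48 hours for Aire and Pdxk) were set against the 14 experiments of 24 hours on the same array, with 1 mean difference per experiment. Of the 33 genes 11 had a higher induced minus uninduced difference in the late experiments and 0 a lower one, while 5.08% of all genes were called higher and 2.55% lower. The late minus 24 hour difference was positive for 30 of the 33, with a median of 0.21, against −0.01 over all genes. Aldoc averaged 1.04 in the late and 0.12 in the 24 hour experiments, a difference of 0.92 ± 0.141 (SE, limma adjusted p = 0.000963). Ldhb averaged 0.58 in the late and −0.11 in the 24 hour experiments, a difference of 0.69 ± 0.161 (SE, limma adjusted p = 0.0143). Pgm1 averaged 0.74 in the late and 0.11 in the 24 hour experiments, a difference of 0.63 ± 0.108 (SE, limma adjusted p = 0.00184). Smaller shifts were called at other steps, including genes that no single late experiment called. Eno2, the neuronal enolase, averaged 0.36 in the late and −0.08 in the 24 hour experiments, and the difference was 0.44 ± 0.0815 (SE, limma adjusted p = 0.00321). Pgk1 averaged 0.37 in the late and 0.06 in the 24 hour experiments, with a difference of 0.31 ± 0.0571 (SE, limma adjusted p = 0.00313). Pgm2, Pfkp, Tpi1, Slc2a3, Pdk2 and Ldha differed by 0.40, 0.45, 0.40, 0.37, 0.29 and 0.17, with limma adjusted p between 0.00717 and 0.0316. In Ldhb, Pgk1 and Tpi1 the lowest late difference (0.266, 0.210 and 0.269) lay above the highest 24 hour one (0.106, 0.195 and 0.266). For Pgk1 and Tpi1 the gap was narrow, and the share of all genes with such a gap was not counted. The 24 hour Runx1 experiment is not in this comparison, and there Ldhb differed by 1.55 and Pgk1 by 0.31. Pfkfb3, high in both sets, had a late minus 24 hour difference of 0.21 (limma adjusted p = 0.5).

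**Figure D5:**
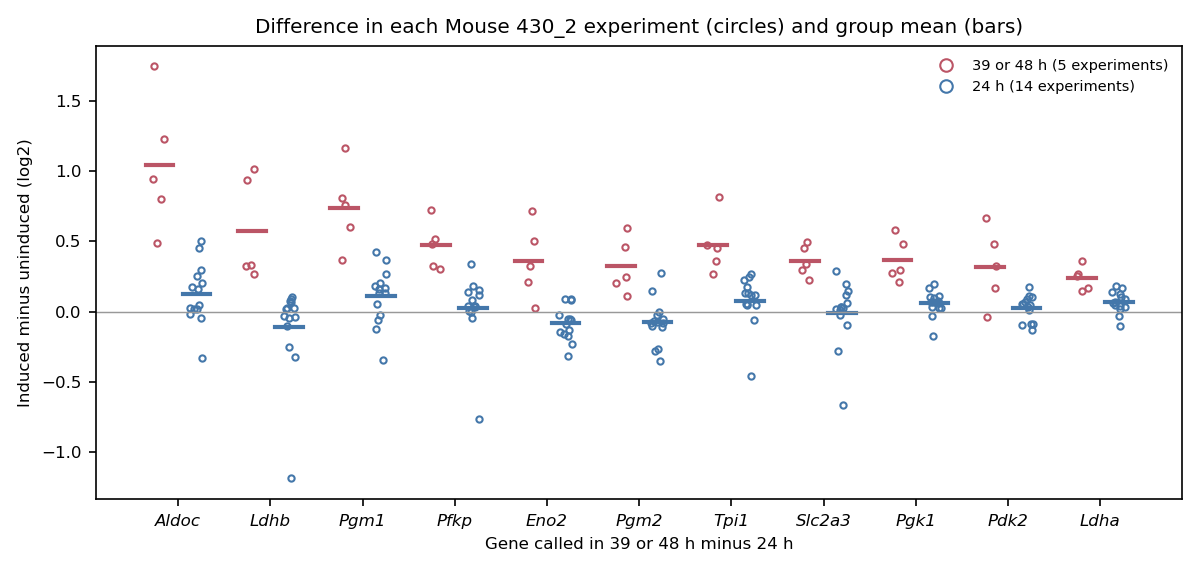
Induced minus uninduced log2 difference of each Mouse430_2 experiment (circles) and the group mean (bars) for the 11 genes called in the late (39 or 48 hours, red) against the 24 hour (blue) experiments, the genes ordered by the difference between the means. Aldoc is at the left, with means of 1.04 in late and 0.12 in 24 hour experiments. The circles of the sets do not overlap for Ldhb, Pgk1 and Tpi1, for Pgk1 and Tpi1 by a narrow gap. The share of all genes with such a gap was not counted, and Runx1, a 24 hour experiment on the other array, is not drawn.

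Each gene was profiled at 1 time, so time without Tc and the identity of the inserted gene cannot be told apart. Array level differed between the sets as well. Array medians were 5.33 to 5.68 in the late experiments. On the same array they were 4.89 to 5.41 in those of 24 hours, where Snf1lk was highest. The part of this in the late minus 24 hour differences was not tested. Without the Pdxk experiment 5 of the 33 genes were called and without Sim2 6. Runx1, a 24 hour experiment on the other array in which Ldhb rose by 1.55, is not in the 24 hour mean, and with it included 9 were called, the calls of Ldhb (0.58, limma adjusted p = 0.156) and Pgm2 (0.35, limma adjusted p = 0.0826) being lost. With Pfkl counted as 39 hours 12 were called, without Ldha (limma adjusted p = 0.0511). The 39 hour experiments alone gave 1 call (Aldoc) and the 48 hour experiments alone 5 (Aldoc, Pgk1, Eno2, Pdk2 and Pgm1), splits that were chosen after seeing the data. Other probesets of Ldhb, Slc2a3 and Pfkp gave differences of 0.66 to 0.68, 0.46 to 0.68 and 0.47 to 0.51, whereas the other probeset of Aldoc gave 0.05 and that of Pgm1 0.03.

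Genes of the same or neighbouring pathways outside the 36 were taken from lists written for these pathways. Of these, 20 were hypoxia genes outside glycolysis, including Hif1a, Epas1, Arnt and Vhl, genes of the hypoxia-inducible factors and their regulation. In Pdxk 9 of the 20 rose and 0 fell, against 0.324% and 0.0385% of all genes, with a median difference of 0.82. Among them were Egln3 (2.37), an oxygen-sensing hydroxylase of the hypoxia-inducible factors, Bnip3 (1.86), a mitophagy receptor, Ankrd37 (1.55) and Ndrg1 (1.44). In Sim2 8 rose and 0 fell (median 0.57), against 0.912% and 0.275% of all genes. The largest were the repressor gene Bhlhe40 (1.41), Ndufa4l2 (1.15) and Bnip3 (1.14). In Runx1 9 of 18 rose and 0 fell, against 9.99% and 8.5% of all genes. In Erg 5 of 20 rose and 2 fell, against 6.69% and 9.33%, so that the share that fell was near that of all genes. In Aire 3 rose and 1 fell, against 3.4% and 1.63%, and in Olig2 1 rose and 1 fell, against 1.19% and 1.31%. In Nrip1 2 rose and 0 fell, against 0.192% and 0.0275% of all genes. Over the 19 experiments 2 were called higher, Bhlhe40 (0.57) and Ankrd37 (0.46), against 0.066% of all genes, the list median being 0.22. In the late against the 24 hour experiments 10 were called higher and 0 lower, against 5.08% and 2.55% of all genes, with a median of 0.37.

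Calls in the neighbouring pathways went both ways, and several lay near the share of all genes. Of 26 other measured genes of glycolysis, 3 rose and 2 fell in Aire, among them Pdk4 (0.85), the pyruvate dehydrogenase kinase of fasting, against 3.4% and 1.63% of all genes. In Erg 2 of 26 fell, against 9.33% of all genes, and in Runx1 2 of 19 fell, against 8.5%. Of the genes of the pyruvate dehydrogenase complex and the mitochondrial pyruvate carrier, 3 of 5 fell in Runx1, against 8.5% of all genes. These were the carrier gene Mpc1 and the complex genes Pdha1 and Pdhb. Of 8 on the larger array 1 fell in Erg (Mpc1), against 9.33%, and 1 in Aire, against 1.63%. Of 7 pentose phosphate genes 1 rose in Runx1, against 9.99% of all genes. The late against 24 hour comparison called 2 of them higher, against 5.08% of all genes. These were Tkt and Taldo1, the transketolase and transaldolase of the non-oxidative arm. Of 12 genes of glycogen metabolism 4 rose and 1 fell in Erg, where Pygl, the liver glycogen phosphorylase, differed by 1.88 and the synthase gene Gys1 by −0.71, against 6.69% and 9.33% of all genes. In this list 5 rose and 1 fell in Runx1, against 9.99% and 8.5% of all genes, and 3 rose in Olig2, against 1.19%. In Pdxk, Sim2 and Aire 1 gene each rose, against 0.324%, 0.912% and 3.4%.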

How the data were processed

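Total RNA of 120 mES clone arrays (20 genes, 3 clones, induced and uninduced) was measured on Affymetrix arrays. Robust multi-array average (RMA) was applied by the authors to the 6 arrays of each experiment on their own, which gave the log2 intensities used here, so levels were not compared between experiments. No probe-level files were used, and the precision is limited by 3 clones in each state. Columns were grouped by the gene and state in their labels. Probesets annotated to 1 gene were named by the platform annotation, and of the probesets of a gene that with the highest mean over all arrays was used. The members and gene lists were chosen with earlier results of these data known.

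Each experiment was fitted with limma 3.58.1 in R 4.3.3, with the replicate number as a block and moderated variances, p-values were adjusted over all probesets of the array by Benjamini-Hochberg, and calls were made at an adjusted p under 0.05. The pairing by number comes from the ratios in the study's supplementary tables, which are means within a number. In the data 54 of 60 pairs deviated together (r above 0.1), all 3 pairs in 15 of 20 experiments, with a median r of 0.376. The authors' own fold changes and p-values were not used. Over the 19 Mouse430_2 experiments, 1 mean difference per experiment was fitted, and the late experiments (5) were set against those of 24 hours (14). The scripts were tested on simulated data. Genes named with values per array are those with the largest called differences, and others, such as Ldhb in Nrip1 and Pfkm in Ets2, were named after their values were seen. Alternatives are given in the last section. Figures were drawn with matplotlib 3.10.9 and tables made with pandas 2.3.3 under Python 3.11.15.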

Additional observations from a re-analysis of the deposited data

Results flagged for a closer look

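The change on induction differed between the late (39 or 48 hours) and the 24 hour experiments for 11 genes, by a test of the difference itself with 1 mean difference per experiment (limma, n = 5 late and 14 of 24 hours). Aldoc, the brain-type aldolase, differed by 0.92, with means of 1.04 in late and 0.12 in 24 hour experiments (limma adjusted p = 0.000963). The difference was 0.69 for Ldhb, the lactate dehydrogenase subunit of oxidative tissues, whose means were 0.58 in late and −0.11 in 24 hour experiments (limma adjusted p = 0.0143). For Pgm1, a phosphoglucomutase, the late mean of 0.74 and the 24 hour mean of 0.11 differed by 0.63 (limma adjusted p = 0.00184). Pfkp, the platelet phosphofructokinase, differed by 0.45, with means of 0.47 in late and 0.02 in 24 hour experiments (limma adjusted p = 0.0199). The difference was 0.44 for Eno2, the neuronal enolase, whose means were 0.36 in late and −0.08 in 24 hour experiments (limma adjusted p = 0.00321). For Pgm2, a phosphoglucomutase, the late mean of 0.32 and the 24 hour mean of −0.08 differed by 0.40 (limma adjusted p = 0.00717). Tpi1, the triose phosphate isomerase, differed by 0.40, with means of 0.47 in late and 0.08 in 24 hour experiments (limma adjusted p = 0.012). The difference was 0.37 for Slc2a3, the high-affinity glucose transporter, whose means were 0.36 in late and −0.01 in 24 hour experiments (limma adjusted p = 0.0316). For Pgk1, the phosphoglycerate kinase, the late mean of 0.37 and the 24 hour mean of 0.06 differed by 0.31 (limma adjusted p = 0.00313). Pdk2, a pyruvate dehydrogenase kinase, differed by 0.29, with means of 0.32 in late and 0.03 in 24 hour experiments (limma adjusted p = 0.0267). The difference was 0.17 for Ldha, the lactate-forming dehydrogenase subunit, whose means were 0.24 in late and 0.07 in 24 hour experiments (limma adjusted p = 0.0307). Without the Pdxk experiment 5 of these comparisons over the 33 genes were called, and without Sim2 6. With Runx1 added to the 24 hour experiments, where Ldhb rose by 1.55, the calls of Ldhb (limma adjusted p = 0.156) and Pgm2 (limma adjusted p = 0.0826) were lost, and that of Ldha was lost with Pfkl counted as 39 hours (limma adjusted p = 0.0511) and with trend and robust moderation (limma adjusted p = 0.131). Each inserted gene was profiled at 1 time, so time and gene cannot be told apart. Array medians were also mostly higher in the late experiments, and the part of this was not tested.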

How the results depend on the processing

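No called difference changed sign under any alternative run. Without the replicate block, on which the pairing of clones rests, the counts of called glycolysis genes were 0 in Aire, 7 in Erg, 2 in Olig2, 0 in Pdxk and 0 in Sim2 (6, 11, 5, 6 and 3 with it), and 23 of 46 single calls were kept. A plain unpaired t-test between states gave 0, 1, 0, 0 and 0 for these experiments and kept 9 of the 46 calls. The study's methods name a t-test and its results a Bayesian one (Cyber-t), which was not run here. With trend and robust moderation the counts were 13 in Aire, 14 in Olig2, 13 in Pdxk, 8 in Sim2, 23 in Runx1 (15 in the reported fit) and 1 in Nrip1 (0). With 1 fit over all Mouse430_2 arrays they were 2 in Aire, 20 in Pdxk, 13 in Sim2, 1 in Ets2, 4 in Gabpa, 4 in Nrip1 and 5 in Ripk4, the last 4 having 0 in the reported fits. At an adjusted p under 0.01 they were 1 in Aire, 6 in Erg, 3 in Olig2, 1 in Pdxk, 0 in Sim2 and 7 in Runx1. The mean of all probesets of a gene gave 1 in Nrip1, and the crossed replicate block of Sim2 gave 0. Leaving out 1 replicate, the counts ranged from 0 to 9 in Aire, 6 to 8 in Erg, 1 to 5 in Olig2, 0 to 20 in Pdxk, 0 to 5 in Sim2, 10 to 13 in Runx1, 0 to 3 in Gabpa, 0 to 1 in Nrip1 and 0 to 1 in Ripk4. Less the median difference of all probesets, the Runx1 median was 0.25 (0.23). Over experiments the count of 1 became 4 with all 20 experiments, 2 less the median difference, 2 with the mean of all probesets and 0 with trend and robust moderation, 0 to 1 leaving out a replicate and 0 to 5 leaving out an experiment (0 without Bach1, 5 without Gabpa). The late against 24 hour count of 11 became 9 with all 20 experiments (Ldhb and Pgm2 lost), 12 with Pfkl counted as 39 hours (Ldha lost, Slc2a1 and Pgam2 gained), 11 with trend and robust moderation (Ldha lost, Pgam2 gained), 5 to 13 leaving out an experiment, and, in splits added after the data were seen, 1 with 39 hours alone and 5 with 48 hours alone. The causes of these shifts were not tested. With 3 clones in each state, the precision of single experiments is low.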
